A study of Mus musculus with 27 samples.

Results

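The p53 pathway, the DNA damage checkpoint and the cell death machinery it controls were followed through 35 genes in 4T1 cells, a mouse mammary carcinoma line. The genes were taken by symbol from the deposited table of 55401 genes, and all 35 were in it. The knockout arm held 6 CRISPR-Cas9 clones lacking 1 of 3 mitochondrial fission proteins, with 2 clones for each: Drp1 KO (clones gs1B8 and gs2_B4), Fis1 KO (gs1_B11 and gs2_F6) and Mff KO (gs1_B4 and gs1_C8), set against parental 4T1 cells. The drug arm held unedited cells kept for 3 days with leflunomide, an inhibitor of pyrimidine synthesis, set against cells kept with its vehicle DMSO. Each of the 9 groups had 3 libraries of polyadenylated RNA. Each knockout group is 1 clone grown from edited cells, so the effect of the deletion and the history of the clone cannot be told apart within it. All groups share the 4T1 background, and the labels do not give the dose of leflunomide.

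The protein p53 is a transcription factor that is held low by Mdm2 and Mdm4 and is stabilised when the kinases Atm, Atr, Chek1 and Chek2 sense damaged or unreplicated DNA. Its targets stop the cell cycle (Cdkn1a, which encodes p21), repair DNA (Xpc, Ddb2, Polk), supply nucleotides (Rrm2b) or open the mitochondrial route to apoptosis (Bax, Bbc3, Pmaip1). That route passes through the outer mitochondrial membrane, where the fission proteins also act. 4T1 cells are known as a line that lacks functional p53.

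The promoter windows of 3 members are shown because Cdkn1a, the classical p53 target, was higher in 5 clones, and because Chek1 and Ei24 were the members lower in all 6 clones. Each runs from 250 bases before to 50 bases after the start site, written 5′ to 3′ on the gene's strand, and was taken from RefSeq on GRCm38.p6. The Cdkn1a window lies on the plus strand at chr17:29090729-29091028, the Chek1 window on the minus strand at chr9:36726609-36726908 and the Ei24 window on the minus strand at chr9:36797285-36797584. Capitals mark matches to CATGNNNNNNCATG, the paired core of the p53 response element, or to GGCGGGAA, an E2F motif, on either strand.
Cdkn1a: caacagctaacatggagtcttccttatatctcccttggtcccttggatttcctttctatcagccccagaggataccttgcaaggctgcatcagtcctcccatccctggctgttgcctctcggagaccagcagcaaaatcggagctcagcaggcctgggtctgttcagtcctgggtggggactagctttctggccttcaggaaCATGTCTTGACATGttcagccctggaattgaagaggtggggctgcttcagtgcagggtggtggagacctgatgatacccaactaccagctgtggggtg
Chek1: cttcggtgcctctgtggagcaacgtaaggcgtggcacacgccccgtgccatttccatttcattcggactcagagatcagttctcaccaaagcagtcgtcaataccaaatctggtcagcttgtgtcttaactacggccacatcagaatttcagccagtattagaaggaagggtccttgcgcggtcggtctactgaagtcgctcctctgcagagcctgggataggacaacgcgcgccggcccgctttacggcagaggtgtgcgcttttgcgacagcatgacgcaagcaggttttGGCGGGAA
Ei24: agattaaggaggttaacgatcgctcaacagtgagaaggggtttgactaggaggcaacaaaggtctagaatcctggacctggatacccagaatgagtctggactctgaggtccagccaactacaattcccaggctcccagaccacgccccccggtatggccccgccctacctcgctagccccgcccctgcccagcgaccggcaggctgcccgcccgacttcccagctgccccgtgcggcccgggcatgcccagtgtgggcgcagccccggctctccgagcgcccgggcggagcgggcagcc
The Cdkn1a window held the paired p53 core at bases 203 to 216, which 0.712% of the 32851 windows in the table held. A second annotated Cdkn1a start had no match, and gene-level counts do not tell which start was used. The Chek1 window held the E2F letters at its last bases, 293 to 300, as did 2.19% of all windows. That window lies wholly within the coordinates of the counted gene, 36708482 to 36727065, so its start site is not the gene's outermost one. Neither motif was present in these letters in the Ei24 window. Windows were found for 28 of the 35 members, and a match is a string of letters and not a measured binding site.

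As a check of the labels, the transcript of each deleted gene was lower in its own clones. Dnm1l, the gene of Drp1, averaged 69.0 CPM (counts scaled to a common total for each library) in gs1B8 and 41.4 CPM in gs2_B4, against 220.9 CPM in parental cells. Fis1 averaged 21.1 and 17.1 CPM in its 2 clones against 47.6 CPM, and Mff 46.5 and 42.4 CPM against 85.5 CPM. Library totals ran from 18492020 to 31295937 counts. The 45S ribosomal RNA precursor took up 23.2% of DMSO replicate 3, while its share was 1.60% to 5.72% elsewhere. Summed epithelial markers ran from 1820.3 to 3787.0 CPM over the libraries, while stromal markers stayed at or under 8.16 CPM and endothelial markers at or under 0.469 CPM, and Cd3e and Adgre1 had no count. Whether replicates came from separate cultures is not in the labels, and a p-value here reflects the spread between these libraries alone. In bulk RNA, fewer cells with a transcript and less of it per cell cannot be told apart.

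Of the 35 members, 31 had enough counts to be tested in both arms, and 28 of these differed from parental cells in at least 1 clone. A gene was called where its adjusted p in the edgeR quasi-likelihood test was below 0.05, with adjustment over all genes tested. In Drp1 clone gs1B8, 5 members were higher and 7 lower, together 38.7% of those tested against 29.5% of all genes (12.1% higher and 17.4% lower). In gs2_B4, 10 were higher and 10 lower, or 64.5% against 50.3% (24.1% higher and 26.3% lower). In Fis1 clone gs1_B11, 8 were higher and 9 lower, or 54.8% against 47.3% (21.4% higher and 25.9% lower). In gs2_F6, 4 were higher and 6 lower, or 32.3% against 31.3% (13.1% higher and 18.2% lower). In Mff clone gs1_B4, 8 were higher and 10 lower, or 58.1% against 47.7% (20.9% higher and 26.8% lower). In gs1_C8, 8 were higher and 7 lower, or 48.4% against 46.7% (21.5% higher and 25.2% lower). Both directions were thus present in every clone, and the median log2 fold change of the members lay between -0.10 and 0.04, beside -0.02 to 0.00 over all genes. Bax, Bbc3 and Plk2 were called in no clone, as were 16.4% of all genes. However, Bax and Plk2 each passed in some clone when 1 library was left out. Plk2 had log2 fold changes of 0.15 ± 0.07 in gs1_B4 and 0.14 ± 0.07 in gs1_B11. It was called higher in gs1_B4 with DESeq2 (0.17), DESeq2 size factors (0.17), no filter on low counts (0.18) or rRNA genes left out (0.18). The gs1_B11 value was called when that clone was fitted with parental cells alone (0.15).

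**Figure D1:**
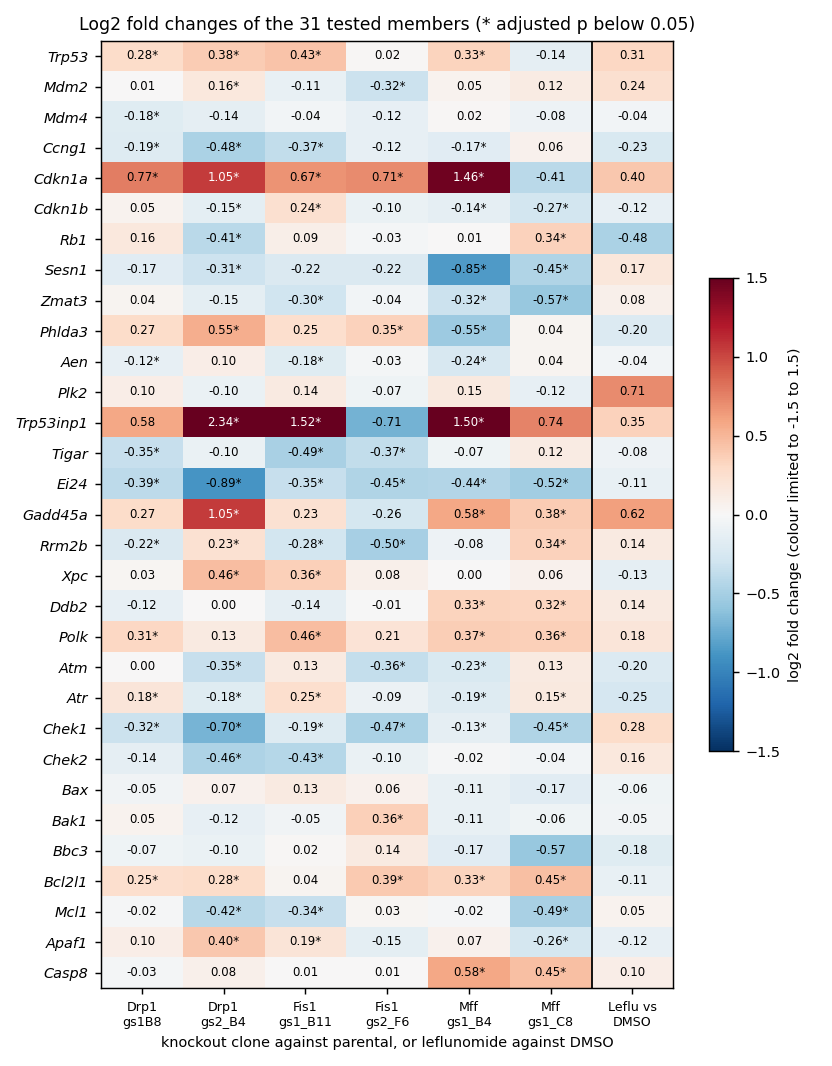
Log2 fold changes of the 31 tested members (rows, ordered by role) in each knockout clone against parental cells and in leflunomide against DMSO (columns), with colour limited to -1.5 to 1.5 and an asterisk where the adjusted p was below 0.05. Ei24 and Chek1 are the rows with 6 called clones in 1 direction, Cdkn1a and Bcl2l1 are called higher in 5, and the leflunomide column has no asterisk.

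Trp53, the gene of p53 itself (chromosome 11, 69580359 to 69591873, GRCm38), was higher in both Drp1 clones and in 1 clone each of Fis1 and Mff. Its libraries held 28.4, 28.4 and 26.6 CPM in gs1B8 and 30.4, 29.2 and 29.3 CPM in gs2_B4. In the Fis1 clones they held 31.3, 29.9 and 31.1 CPM (gs1_B11) and 24.1, 23.9 and 21.3 CPM (gs2_F6). In the Mff clones they held 31.7, 27.7 and 26.7 CPM (gs1_B4) and 19.8, 21.7 and 20.8 CPM (gs1_C8), against 22.8, 22 and 23.8 CPM in parental cells. The libraries of gs1B8, gs2_B4, gs1_B11 and gs1_B4 all lay above every parental library, those of gs2_F6 overlapped them, and those of gs1_C8 all lay below. The log2 fold changes were 0.28 in gs1B8, 0.38 in gs2_B4, 0.43 in gs1_B11 and 0.33 in gs1_B4, each with SE 0.06, and the largest of the 4 edgeR adjusted p-values was 0.0019. In gs2_F6 the log2 fold change was 0.02 ± 0.06 (adjusted p = 0.87) and in gs1_C8 it was -0.14 ± 0.06 (adjusted p = 0.086).

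Mdm2, the ubiquitin ligase that degrades p53 and is itself a p53 target, was called in 2 of the 6 clones, in opposite directions. It held 70.1, 72.4 and 77.5 CPM in gs1B8, 79.5, 79.0 and 85.6 CPM in gs2_B4, 64.2, 66.3 and 72.2 CPM in gs1_B11 and 54.4, 60.2 and 60.3 CPM in gs2_F6. It held 72.2, 74.2 and 79.3 CPM in gs1_B4 and 75.5, 78.1 and 84.5 CPM in gs1_C8, against 68.1, 71.1 and 79.5 CPM in parental cells. The gs2_F6 libraries were the only ones that lay wholly below the parental range, with a log2 fold change of -0.32 ± 0.07 (edgeR adjusted p = 0.00075). In gs2_B4 it was 0.16 ± 0.06 (adjusted p = 0.048) with overlapping libraries, and that call was lost without parental replicate 1 (0.11) or 2 (0.14) or without gs2_B4 replicate 1 (0.18), 2 (0.18) or 3 (0.12). Without parental replicate 3 gs1_C8 was called as well (0.19). Mdm2 was also called higher in gs1_C8 with the run of consecutive column numbers as a block (0.12 ± 0.03, edgeR adjusted p = 0.0063). The same block gave a lower call in gs1_B11 (-0.11 ± 0.04, adjusted p = 0.015). Mdm4, the second inhibitor of p53, averaged 79.6 to 91.8 CPM in the clones against 90.4 ± 5.12 CPM in parental cells (SD, n = 3). Of the 6 clones it was called in gs1B8 alone (log2 -0.18 ± 0.06, edgeR adjusted p = 0.035). That call was lost without parental replicate 1 (-0.13) or 2 (-0.17) and without gs1B8 replicate 1 (-0.20), 2 (-0.20) or 3 (-0.16). It was also lost with the rRNA genes left out (-0.16) and with all 27 libraries in 1 fit (-0.17), while gs2_B4 was called without gs2_B4 replicate 1 (-0.21) or parental replicate 3 (-0.18). Ccng1, a p53 target that recruits a phosphatase to Mdm2, fell in both Drp1 clones, to 92.7 ± 2.25 and 75.6 ± 3.79 CPM against 105.5 ± 0.66 CPM, and in gs1_B11 to 81.6 ± 5.49 CPM (SD, n = 3 each). The call of Ccng1 in gs1B8 (log2 -0.19) was lost without any 1 of the 3 parental libraries or without gs1B8 replicate 1 or 2, with log2 values of -0.17 to -0.19. Ccng1 was also called lower in gs1_B4 (94.0 ± 5.83 CPM, log2 -0.17 ± 0.06, edgeR adjusted p = 0.034), a call lost under 10 alternatives, DESeq2 (-0.14) and the omission of any 1 parental library or of gs1_B4 replicate 1 (-0.12) among them.

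**Figure D2:**
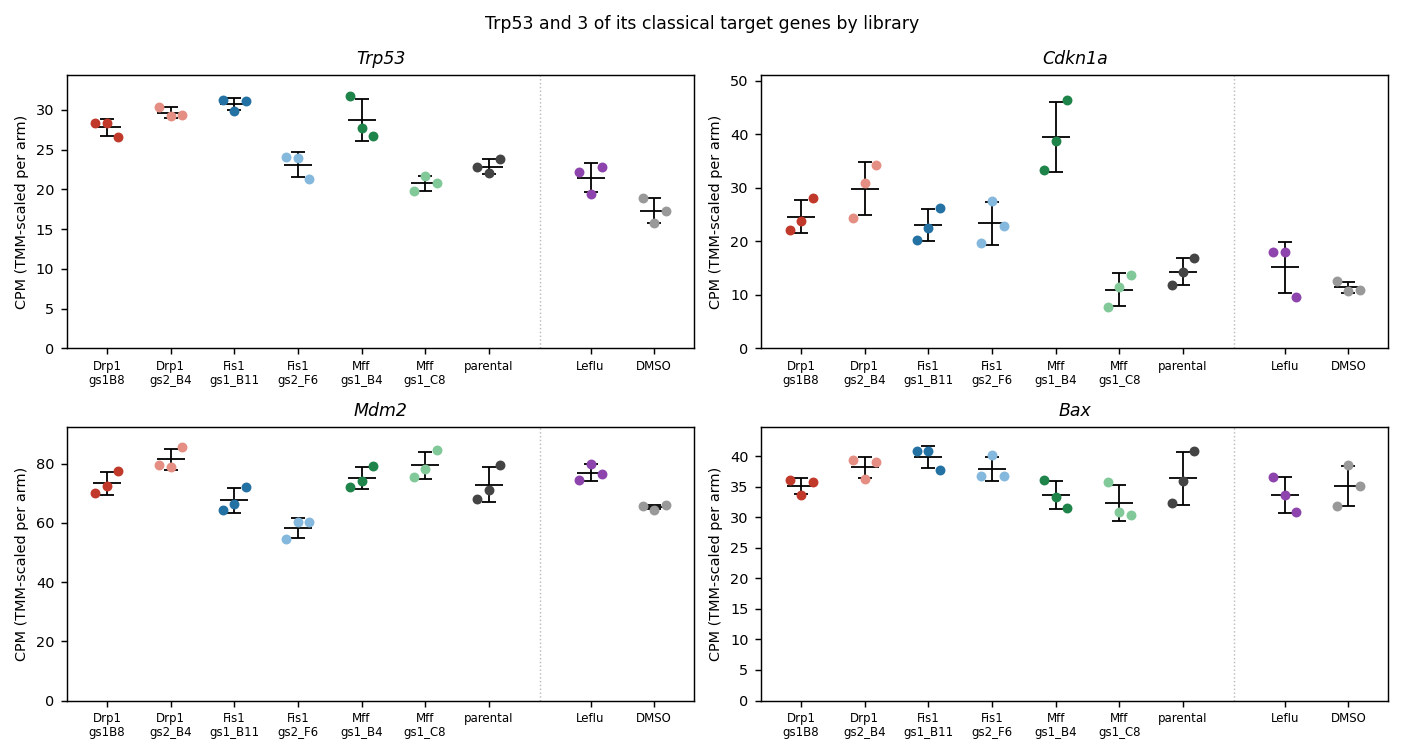
CPM of Trp53, Cdkn1a, Mdm2 and Bax in each library (points) of the 6 knockout clones, parental cells, leflunomide and DMSO, with mean and SD (black). Cdkn1a lies above the parental range of 11.8 to 16.9 CPM in every library of 5 clones but not in gs1_C8, while the Bax libraries of every clone overlap the parental ones.

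Cdkn1a, which encodes the cyclin-dependent kinase inhibitor p21 (chromosome 17, 29090976 to 29100727), was higher in 5 of the 6 clones. It held 22, 23.7 and 28 CPM in gs1B8 and 24.4, 30.8 and 34.3 CPM in gs2_B4. The Fis1 clones held 20.3, 22.4 and 26.2 CPM (gs1_B11) and 19.6, 27.5 and 22.9 CPM (gs2_F6). The Mff clones held 33.3, 38.7 and 46.3 CPM (gs1_B4) and 7.66, 11.4 and 13.7 CPM (gs1_C8), against 11.8, 14.3 and 16.9 CPM in parental cells. All 15 libraries of the 5 clones lay above every parental library, and the gs1_C8 libraries overlapped the parental ones. The log2 fold changes were 0.77 ± 0.19 in gs1B8 (edgeR adjusted p = 0.0035), 1.05 ± 0.18 in gs2_B4 (adjusted p = 7.7e-05), 0.67 ± 0.19 in gs1_B11 (adjusted p = 0.006), 0.71 ± 0.19 in gs2_F6 (adjusted p = 0.0064) and 1.46 ± 0.18 in gs1_B4 (adjusted p = 1.6e-06). In gs1_C8 the log2 fold change was -0.41 ± 0.20 (adjusted p = 0.11), and edgeR called it lower without gs1_C8 replicate 3 (-0.57 ± 0.22, adjusted p = 0.041) and with no filter on low counts (-0.39 ± 0.09, adjusted p = 4.7e-05). With the run of consecutive column numbers as a block, edgeR also called Cdkn1a lower in gs1_C8 (-0.41 ± 0.10, adjusted p = 0.0034). The 2 Mff clones stood apart, with gs1_C8 below gs1_B4 by a log2 difference of -1.86 ± 0.19 (adjusted p = 4.4e-08). The difference between the clones was 0.28 ± 0.17 for Drp1 (gs2_B4 minus gs1B8, adjusted p = 0.22) and 0.03 ± 0.18 for Fis1 (gs2_F6 minus gs1_B11, adjusted p = 0.9). Of the members, Cdkn1a was the only one called with a log2 fold change past 0.5 in both clones of Drp1 and of Fis1.

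Of the other inhibitors of the cell cycle, 2 were not detected. Cdkn2a, which encodes p16 and the Mdm2 inhibitor p19Arf, and its neighbour Cdkn2b, which encodes p15, had 0 counts in all 27 libraries. Over the 651097635 counts of the table, a count of 0 allows up to 3 counts, or 0.00461 CPM, and within single libraries 0.0959 to 0.162 CPM. Both genes lie on chromosome 4, Cdkn2a at 89274471 to 89294653 and Cdkn2b at 89306299 to 89311039. Mtap, a methionine salvage gene at lower coordinates, 89137122 to 89181081, had 9209 to 21357 counts in every library. Between Mtap and Cdkn2a, Gm12606 at 89235699 to 89273403 had 138 counts in all 27 libraries together and up to 15 in a library. Gm26490 and Tgif2-ps1, also between them, had 0. On the other side, Gm12609, Gm12610, Gm12608 and Gm27580 had 1, 8, 22 and 0 counts in all. Dmrta1, further out at 89679436 to 89694772, had 1 count in all 27 libraries together. These neighbours were looked at after the values of Cdkn2a were seen.

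Cdkn1b, which encodes the kinase inhibitor p27, was higher in gs1_B11 at 81.2 ± 1.21 CPM and lower in gs1_C8 at 57.0 ± 3.95 CPM, against 68.7 ± 3.18 CPM in parental cells (SD, n = 3 each). Its smaller calls in gs2_B4 (log2 -0.15) and gs1_B4 (log2 -0.14) came with overlapping libraries. The gs2_B4 call was lost without parental replicate 1 (-0.14) or 2 (-0.12) or gs2_B4 replicate 1 (-0.14) or 2 (-0.12), and the gs1_B4 call without parental replicate 1 (-0.11) or 2 (-0.08) or gs1_B4 replicate 1 (-0.13) or 3 (-0.12). Rb1, the retinoblastoma protein gene that restrains E2F factors, was lower in gs2_B4 (9.86 ± 0.412 CPM) and higher in gs1_C8 (16.7 ± 1.45 CPM), against 13.2 ± 0.804 CPM in parental cells. Rb1 overlaps other annotated genes in the table, and whether counting used strand is not stated.

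Trp53inp1 and Gadd45a were each called higher in 3 clones and lower in none. Trp53inp1, a p53 cofactor, had a mean of 2.27 ± 0.191 CPM in gs2_B4, 1.29 ± 0.149 CPM in gs1_B11 and 1.26 ± 0.652 CPM in gs1_B4, against 0.443 ± 0.0651 CPM in parental cells (SD, n = 3 each). The log2 fold changes were 2.34 ± 0.34 in gs2_B4, 1.52 ± 0.36 in gs1_B11 and 1.50 ± 0.36 in gs1_B4, the largest edgeR adjusted p being 0.0016, and in gs2_F6 the value was -0.71 ± 0.44 (adjusted p = 0.24). These levels rest on few counts. Gadd45a, a damage-induced regulator of repair and growth arrest, was higher in gs2_B4 (7.13 ± 0.627 CPM, log2 1.05 ± 0.13) and in both Mff clones (5.16 ± 0.326 and 4.47 ± 0.342 CPM), against 3.43 ± 0.586 CPM. Its call in gs1_C8 (log2 0.38) was lost without parental replicate 1 (0.29) or 2 (0.38) or gs1_C8 replicate 2 (0.32), and without parental replicate 3 it was also called in gs1B8 (0.40) and gs1_B11 (0.36).

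Sesn1, a sestrin that restrains growth signalling under stress, was lower in both Mff clones at 5.35 ± 0.388 and 7.06 ± 0.456 CPM, against 9.68 ± 0.696 CPM in parental cells. Its log2 fold changes were -0.85 ± 0.10 and -0.45 ± 0.09, with edgeR adjusted p-values of 4.1e-07 and 0.0005. In the remaining clones all Sesn1 libraries also lay below the parental ones, at 7.79 to 8.59 CPM on average, of which gs2_B4 was called (log2 -0.31 ± 0.09, adjusted p = 0.0083) and was not called without parental replicate 1 (-0.25). Zmat3, an RNA-binding target of p53, was lower in gs1_C8 (log2 -0.57 ± 0.10, adjusted p = 0.00012), while its calls in gs1_B11 (-0.30) and gs1_B4 (-0.32) were each lost without parental replicate 1 (-0.24 in both) or 2 (-0.25 in both). They were also lost without gs1_B11 replicate 2 (-0.26) or 3 (-0.27) and without gs1_B4 replicate 1 (-0.20). Phlda3, a p53 target that inhibits Akt, was higher in gs2_B4 (8.61 ± 0.629 CPM) and lower in gs1_B4 (4.00 ± 0.653 CPM), against 5.87 ± 0.194 CPM. It was also higher in gs2_F6 (7.47 ± 0.399 CPM, log2 0.35 ± 0.11), where the call was lost without gs2_F6 replicate 1 (0.30) or parental replicate 2 (0.33). Tigar, which encodes a fructose bisphosphatase, was lower in gs1B8 (log2 -0.35), gs1_B11 (-0.49) and gs2_F6 (-0.37), each with SE 0.08. Aen, a p53-induced nuclease, was lower in gs1_B11 (-0.18) and gs1_B4 (-0.24), and its log2 fold changes in the 6 clones ran from -0.24 to 0.10. Aen was also called lower in gs1B8 (-0.12 ± 0.04, edgeR adjusted p = 0.038), a call lost under 12 alternatives, DESeq2 (-0.11) among them. In gs2_B4 it was called higher under some alternatives, such as DESeq2 (0.11) and the omission of gs2_B4 replicate 3 (0.13).

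Among the repair and nucleotide supply genes, Xpc and Ddb2, both of which recognise damage in nucleotide excision repair, rose in different clones. Xpc was higher in gs2_B4 (18.1 ± 0.923 CPM) and gs1_B11 (16.9 ± 0.286 CPM), against 13.2 ± 0.542 CPM in parental cells. Ddb2 was higher in the Mff clones (16.3 ± 1.84 and 16.1 ± 0.731 CPM), against 12.9 ± 0.729 CPM, with log2 fold changes of 0.33 and 0.32. Ddb2 overlaps Acp2 in the annotation. Polk, a translesion polymerase, was higher in both Mff clones (0.37 and 0.36), in gs1_B11 (0.46) and in gs1B8 (0.31). Its gs1B8 call was lost without parental replicate 1 (0.26) or 2 (0.32) or gs1B8 replicate 2 (0.25) or 3 (0.30). Polk was not called in gs2_B4 (0.13 ± 0.10) or gs2_F6 (0.21 ± 0.10). In gs2_F6 it was called higher with no filter on low counts (0.23) and with the run of column numbers as a block (0.21). Rrm2b, the p53-induced subunit of ribonucleotide reductase, had opposite calls in the Drp1 clones, at 35.4 ± 1.04 CPM in gs1B8 and 48.5 ± 1.37 CPM in gs2_B4, against 41.3 ± 1.17 CPM. It was lower in both Fis1 clones (34.1 ± 1.06 and 29.2 ± 2.53 CPM) and higher in gs1_C8 (52.5 ± 2.08 CPM). In gs1_B4 Rrm2b stood at 39.1 ± 2.30 CPM, with libraries that overlapped the parental ones.

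Of the checkpoint kinases, Atm and Atr split the clones of each genotype, and Chek1 was lower in all 6. Atm, the kinase activated by double-strand breaks (chromosome 9, 53439149 to 53536740), held 67.1, 68.2 and 67.3 CPM in gs1B8 and 53.6, 51.6 and 54.0 CPM in gs2_B4. It held 69.0, 73.3 and 79.4 CPM in gs1_B11 and 48.7, 51.2 and 58.8 CPM in gs2_F6. In the Mff clones it held 50.9, 55.2 and 66.8 CPM (gs1_B4) and 79.3, 69.2 and 73.2 CPM (gs1_C8), against 70.5, 68.0 and 64.5 CPM in parental cells. The libraries of gs2_B4 and gs2_F6 lay below all parental libraries, and those of the other 4 clones overlapped them. The log2 fold change was -0.35 ± 0.08 in gs2_B4 (edgeR adjusted p = 0.0015) and -0.36 ± 0.08 in gs2_F6 (adjusted p = 0.0024). In gs1_B4 it was -0.23 ± 0.08 (adjusted p = 0.027), which did not pass without parental replicate 1 (-0.17) or 2 (-0.20) or gs1_B4 replicate 1 (-0.15) or 2 (-0.20).

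Atr, the kinase that answers stalled replication forks, averaged 90.1 ± 5.10 CPM in gs1B8, 70.3 ± 6.01 CPM in gs2_B4, 94.6 ± 0.664 CPM in gs1_B11, 75.0 ± 1.82 CPM in gs2_F6, 69.9 ± 3.11 CPM in gs1_B4 and 88.4 ± 1.63 CPM in gs1_C8, against 79.6 ± 4.39 CPM in parental cells (SD, n = 3 each). It was called higher in gs1B8 (log2 0.18), gs1_B11 (0.25) and gs1_C8 (0.15) and lower in gs2_B4 (-0.18) and gs1_B4 (-0.19). The call in gs1_B11 held without any 1 library. The call in gs1B8 was lost without gs1B8 replicate 2 (0.13) or parental replicate 3 (0.14), in gs2_B4 without parental replicate 1 (-0.14) or gs2_B4 replicate 3 (-0.11), in gs1_B4 without parental replicate 1 (-0.13) or 2 (-0.15) or gs1_B4 replicate 1 (-0.15), and in gs1_C8 without gs1_C8 replicate 1 (0.15) or parental replicate 3 (0.11). An antisense gene overlaps Atr, and the use of strand in counting is not stated. Chek2, the kinase downstream of Atm, was lower in gs2_B4 (12.2 ± 0.096 CPM) and gs1_B11 (12.5 ± 0.627 CPM), against 16.8 ± 0.823 CPM.

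Chek1, the kinase downstream of Atr (chromosome 9, 36708482 to 36727065), held 117.4, 130.2 and 123.0 CPM in gs1B8 and 98.5, 95.0 and 92.7 CPM in gs2_B4. It held 132.3, 135.1 and 139.5 CPM in gs1_B11 and 113.1, 107.5 and 113.3 CPM in gs2_F6. The Mff clones held 141.5, 143.6 and 139.0 CPM (gs1_B4) and 112.2, 108.4 and 117.9 CPM (gs1_C8), against 149.8, 153.5 and 160.1 CPM in parental cells. Every library of every clone lay below every parental library. The log2 fold changes were -0.32 in gs1B8, -0.70 in gs2_B4, -0.19 in gs1_B11, -0.47 in gs2_F6, -0.13 in gs1_B4 and -0.45 in gs1_C8, each with SE 0.04, and the largest edgeR adjusted p was 0.022, in gs1_B4. That call was lost without parental replicate 2 (-0.11) or 3 (-0.10) or gs1_B4 replicate 3 (-0.12), and the calls in the other 5 clones held without any 1 library.

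Ei24, which encodes an endoplasmic reticulum protein induced by p53 (chromosome 9, 36779159 to 36797393), held 171.5, 171.3 and 163.7 CPM in gs1B8 and 127.0, 119.5 and 112.8 CPM in gs2_B4. It held 180.7, 179.0 and 163.5 CPM in gs1_B11 and 169.3, 163.4 and 155.9 CPM in gs2_F6. The Mff clones held 168.2, 162.3 and 159.0 CPM (gs1_B4) and 158.9, 157.5 and 148.0 CPM (gs1_C8), against 229.6, 223.7 and 212.1 CPM in parental cells. All 18 clone libraries lay below the parental ones. The log2 fold change was -0.89 ± 0.05 in gs2_B4 (edgeR adjusted p = 2.7e-11) and ran from -0.35 to -0.52 in the other 5 clones, where the largest adjusted p was 1.2e-05. Ei24 and Chek1 were the members lower in all 6 clones, or 6.45% of those tested against 2.1% of all genes. The 6 comparisons share the parental libraries.

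Chek1 and Ei24 are near neighbours, with 52094 bases and 1 annotated gene, Stt3a, between them. Stt3a, which encodes a catalytic subunit of the oligosaccharyltransferase (36729344 to 36767679), was looked at because of its position, after the values of Chek1 and Ei24 were seen. It averaged 499.1 ± 9.83 CPM in gs1B8, 391.3 ± 8.36 CPM in gs2_B4, 461.0 ± 9.66 CPM in gs1_B11, 447.2 ± 13.2 CPM in gs2_F6, 513.6 ± 9.13 CPM in gs1_B4 and 416.2 ± 5.93 CPM in gs1_C8, against 572.3 ± 24.8 CPM in parental cells (SD, n = 3 each). All 18 clone libraries of Stt3a lay below the parental ones, and its log2 fold changes ran from -0.16 to -0.55. Of the next tested genes on either side, Pate14 was called lower in 2 clones and higher in 4, and Gm27219, which begins 15740 bases after Ei24, was called in none. Further out, from 410830 bases after Ei24, Tmem218 and Ccdc15 were each called lower in 5 clones, Slc37a2 in none, and Gm10177 lower in 1 clone and higher in 1. The DNA copy number of the region was not measured.

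**Figure D3:**
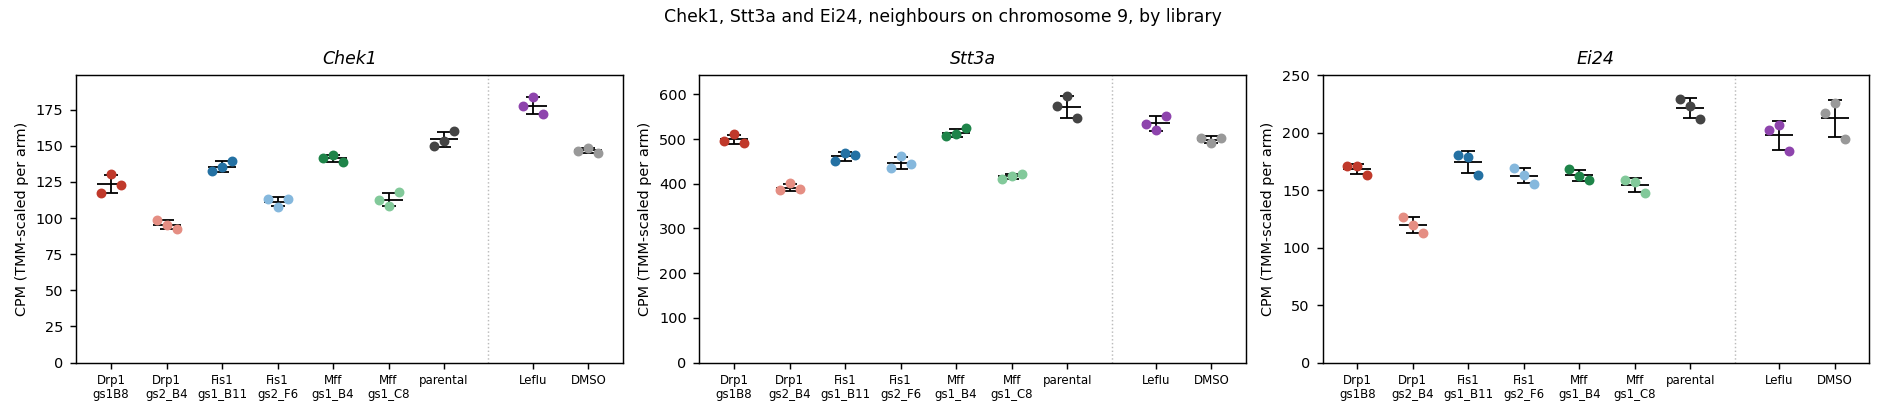
CPM of Chek1, Stt3a and Ei24, which neighbour each other on chromosome 9, in each library (points) of the 6 knockout clones, parental cells, leflunomide and DMSO, with mean and SD (black). Every library of every clone lies below the parental libraries for all 3 genes, and gs2_B4 has the lowest mean, at 95.4 CPM for Chek1, 391.3 CPM for Stt3a and 119.8 CPM for Ei24.

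Of the death effectors, Bax was called in no clone and Bak1 in 1. Bax, which permeabilises the outer mitochondrial membrane (chromosome 7, 45461697 to 45466898), held 36.1, 33.7 and 35.7 CPM in gs1B8, 39.3, 36.2 and 39.1 CPM in gs2_B4, 40.9, 40.9 and 37.8 CPM in gs1_B11 and 36.8, 40.2 and 36.7 CPM in gs2_F6. It held 36.1, 33.3 and 31.5 CPM in gs1_B4 and 35.7, 30.8 and 30.4 CPM in gs1_C8, against 32.3, 35.9 and 40.9 CPM in parental cells. All 6 clones overlapped the parental libraries, with log2 fold changes of -0.17 to 0.13, and the smallest edgeR adjusted p was 0.081. Bax was called higher in gs1_B11 without parental replicate 3 (0.22), and lower in gs1_C8 without parental replicate 1 (-0.23) or gs1_C8 replicate 1 (-0.24). Bak1, the second effector, was higher in gs2_F6 (97.8 ± 5.81 CPM against 76.3 ± 3.73 CPM, log2 0.36 ± 0.05). It was called lower in gs2_B4 without gs2_B4 replicate 1 (-0.15) or parental replicate 3 (-0.16) and in gs1_B4 without parental replicate 3 (-0.15). Of the p53-induced activators of Bax and Bak1, Bbc3, which encodes Puma, averaged 0.901 to 1.50 CPM in the clones against 1.35 ± 0.183 CPM and was not called. Pmaip1, which encodes Noxa, had 27 counts in all libraries together and no library above 6, and Eda2r, a p53-induced death receptor, had 2 counts in all. Neither passed the filter on low counts, so neither was tested in the main fits. Pmaip1 held 0.254, 0.225 and 0.0466 CPM in gs1_B11, or 13 counts in all, against 0 counts in parental cells. Each of the other clones had 0 to 4 counts of Pmaip1 in all.

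Among the survival proteins, Bcl2l1 was higher in most clones and Mcl1 lower in 3. Bcl2l1, which encodes the survival protein Bcl-xL, averaged 59.9 ± 0.411 CPM in gs1B8, 61.1 ± 1.68 CPM in gs2_B4, 66.0 ± 3.51 CPM in gs2_F6, 63.3 ± 1.85 CPM in gs1_B4 and 68.5 ± 2.61 CPM in gs1_C8, against 50.3 ± 3.47 CPM in parental cells (SD, n = 3 each). The libraries of these clones all lay above the parental ones, the log2 fold changes ran from 0.25 to 0.45 and the largest edgeR adjusted p was 0.00071. In gs1_B11 Bcl2l1 stood at 51.8 ± 1.49 CPM (log2 0.04 ± 0.05). Cdkn1a and Bcl2l1 were the members called higher in 5 clones, and 3.03% of all genes were called higher in at least 5. Mcl1, the second survival protein, was lower in gs2_B4 (150.9 ± 2.71 CPM), gs1_B11 (159.6 ± 8.47 CPM) and gs1_C8 (144.0 ± 3.83 CPM), against 201.8 ± 7.09 CPM, with log2 fold changes of -0.42, -0.34 and -0.49 and SE 0.05. In the other 3 clones Mcl1 averaged 198.6 to 205.7 CPM.

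Casp8, the initiator caspase of death receptors, was higher in the Mff clones at 107.2 ± 1.65 and 98.5 ± 6.90 CPM, against 72.0 ± 5.16 CPM in parental cells. The log2 fold changes were 0.58 ± 0.05 and 0.45 ± 0.05, with edgeR adjusted p-values of 2.5e-08 and 7.1e-07. In the Drp1 and Fis1 clones Casp8 averaged 70.6 to 75.9 CPM and was not called. Apaf1, the scaffold of the apoptosome, was higher in gs2_B4 (31.5 ± 1.18 CPM) and lower in gs1_C8 (19.9 ± 1.22 CPM), against 23.9 ± 0.702 CPM. Its call in gs1_B11 (log2 0.19) was lost without parental replicate 1 (0.18) or 2 (0.19) or gs1_B11 replicate 3 (0.16).

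**Figure D4:**
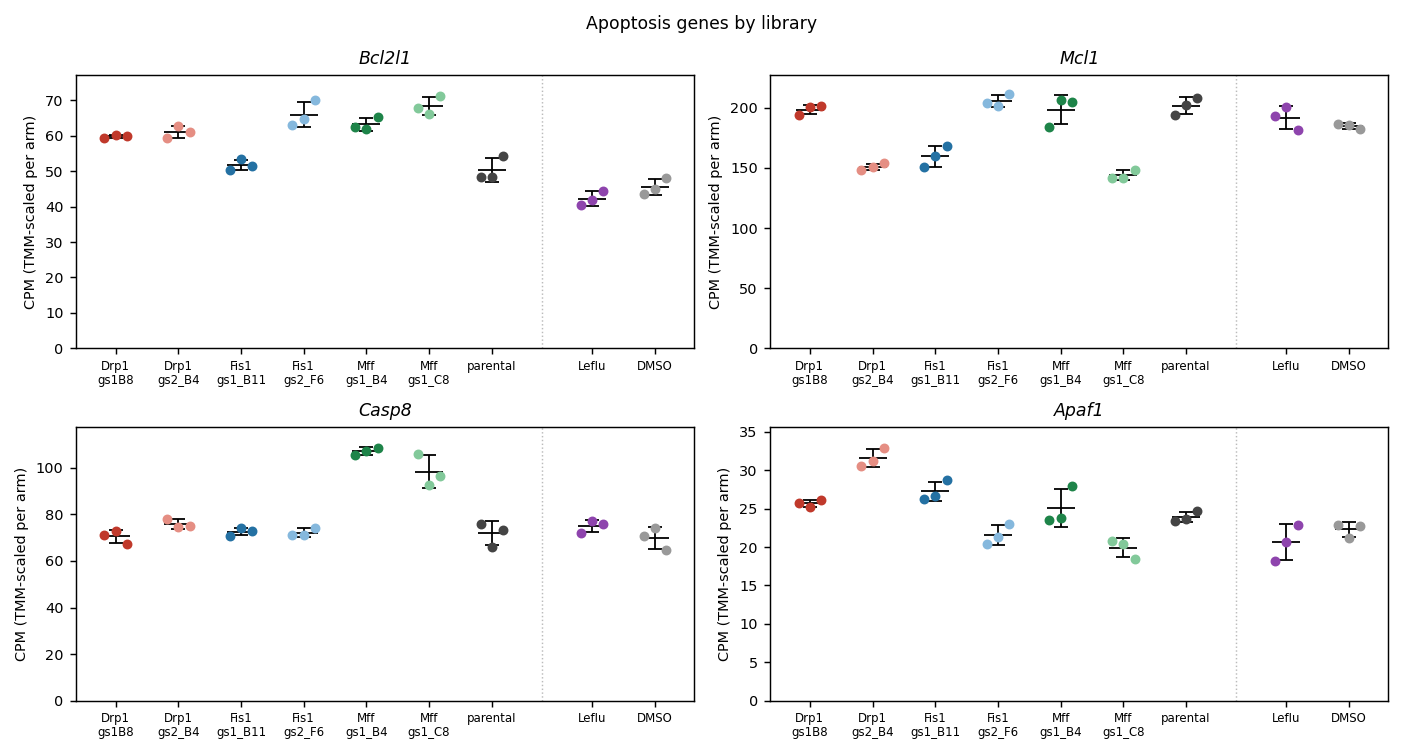
CPM of Bcl2l1, Mcl1, Casp8 and Apaf1 in each library (points) of the 6 knockout clones, parental cells, leflunomide and DMSO, with mean and SD (black). Casp8 stands at 92.6 to 108.7 CPM in the libraries of the 2 Mff clones and at 66.2 to 76.1 CPM in parental cells, and Mcl1 is lower in gs2_B4, gs1_B11 and gs1_C8.

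Taken by genotype, the members called in the same direction in both clones were counted beside the share of all genes. With Drp1 KO, 3 were higher in both (Trp53, Cdkn1a and Bcl2l1), or 9.68% of those tested against 7.94% of all genes, and 3 were lower (Ccng1, Ei24 and Chek1) against 12.1% of all genes. With Fis1 KO, 1 was higher (Cdkn1a, against 5.94% of all genes) and 4 were lower (Rrm2b, Tigar, Ei24 and Chek1), or 12.9% against 9.02%. With Mff KO, 5 were higher (Gadd45a, Ddb2, Polk, Bcl2l1 and Casp8), or 16.1% against 7.37%, and 5 were lower (Sesn1, Zmat3, Ei24, Cdkn1b and Chek1), or 16.1% against 11.3%. No member was higher in all 6 clones, against 0.538% of all genes, and the lower members called in at least 5 clones were again Ei24 and Chek1, against 6.43% of all genes. The 5 lower with Mff KO became 3 without parental replicate 1 or without gs1_B4 replicate 1 or 3, and 2 without parental replicate 2. The 3 lower with Drp1 KO became 2 without parental replicate 1 or 2 or gs1B8 replicate 1 or 2.

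The 2 clones of a genotype often differed from each other. Between the Drp1 clones 19 members differed, 8 higher and 11 lower in gs2_B4, or 61.3% of those tested against 41% of all genes (20.1% higher and 20.9% lower). Between the Fis1 clones 20 differed, 7 higher and 13 lower in gs2_F6, or 64.5% against 47.6% (22.9% higher and 24.7% lower). Between the Mff clones 17 differed, 9 higher and 8 lower in gs1_C8, or 54.8% against 54.7% (28.3% higher and 26.4% lower). In the Drp1 clones the largest differences were Trp53inp1 (gs2_B4 minus gs1B8, log2 1.75 ± 0.32), Gadd45a (0.78 ± 0.13) and Rb1 (-0.57 ± 0.11). In the Fis1 clones they were Trp53inp1 (gs2_F6 minus gs1_B11, -2.23 ± 0.38), Gadd45a (-0.49 ± 0.14) and Atm (-0.48 ± 0.08). In the Mff clones they were Cdkn1a (gs1_C8 minus gs1_B4, -1.86 ± 0.19), Phlda3 (0.60 ± 0.11) and Trp53 (-0.47 ± 0.06) among the called members. Atm and Atr differed in the same direction in each pair of clones: -0.35 and -0.36 in Drp1, -0.48 and -0.34 in Fis1, and 0.36 and 0.34 in Mff. Other members also shared their signs over the 3 pairs. Rb1 had those of Atm and Atr (-0.57, -0.12 and 0.33, the Fis1 value not called). Plk2 (-0.20, -0.21 and -0.28) and Chek1 (-0.37, -0.29 and -0.33) were lower in each. Calls in opposite directions in both clones of a genotype were found for Rrm2b and Atr in Drp1 (2.07% of all genes) and Atr in Mff (8.69%), and for no member in Fis1 (5.29%).

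**Figure D5:**
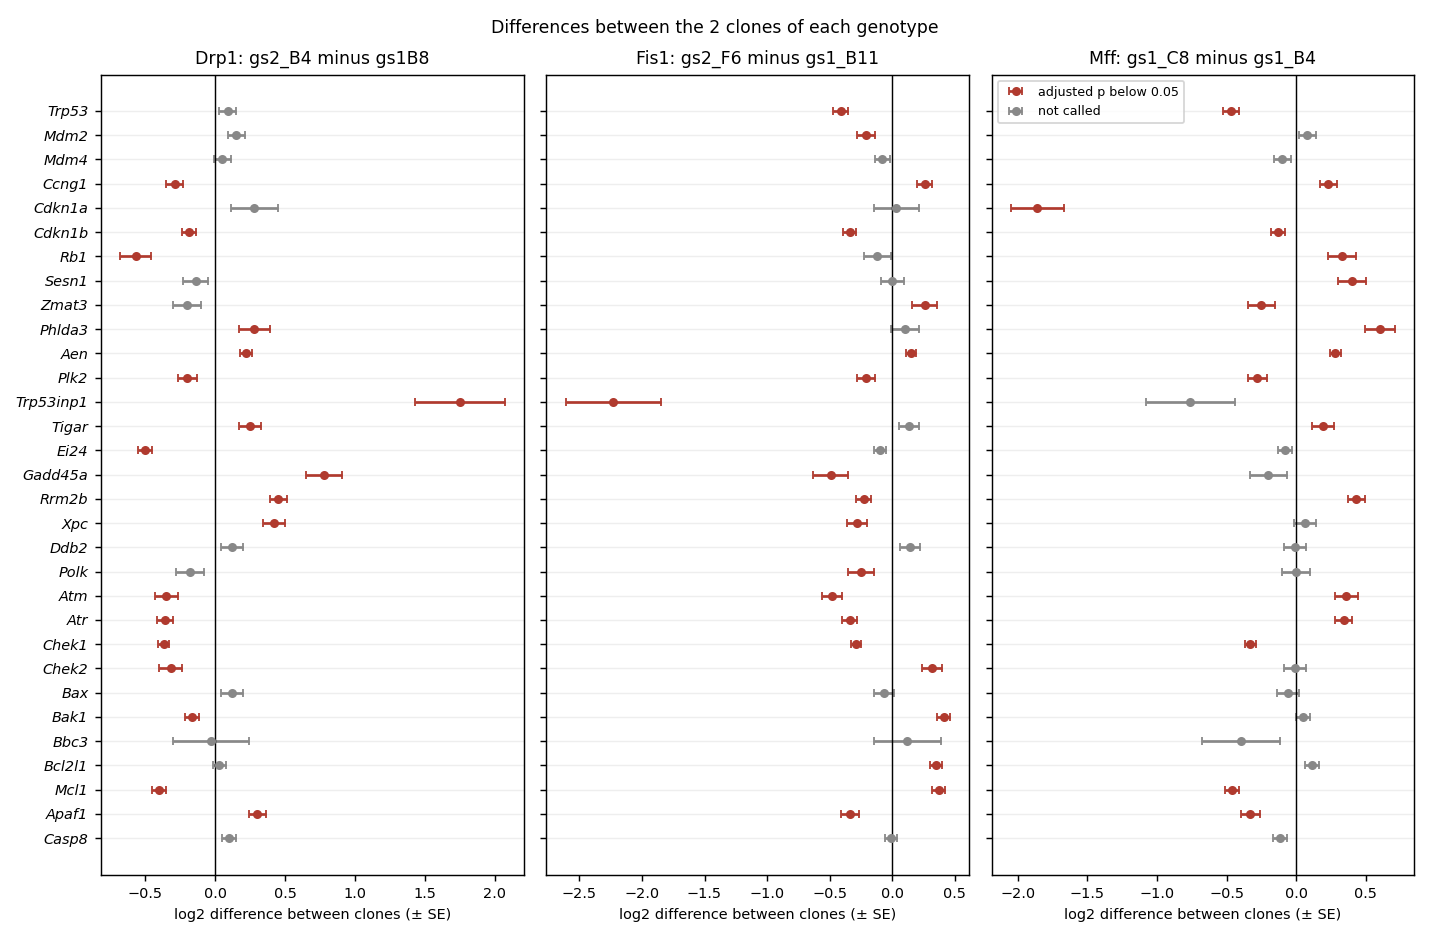
Log2 difference between the 2 clones of each genotype with SE, for the 31 tested members in rows, with called members in red. Atm and Atr fall on the same side of 0 within each genotype, as do Plk2 and Chek1. Cdkn1a differs between the Mff clones (-1.86) but was not called for Drp1 (0.28) or Fis1 (0.03).

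With 3 days of leflunomide none of the 31 tested members was called, against 2.79% of the 12603 genes tested in that arm (1.84% higher and 0.944% lower). Of the members, 8 had an unadjusted edgeR p below 0.05, against 20.9% of all genes, while DESeq2 called 2, against 6.08% of all genes. Plk2, a polo-like kinase and p53 target, held 175.4, 194.6 and 267.4 CPM with leflunomide, against 118.6, 129.0 and 143.5 CPM with DMSO. Its libraries did not overlap, and its log2 fold change was 0.71 ± 0.15 (edgeR adjusted p = 0.052). Chek1 held 177.8, 183.5 and 172.1 CPM with leflunomide, against 146.4, 148.6 and 145.3 CPM with DMSO (log2 0.28 ± 0.06, adjusted p = 0.052). DESeq2 called these 2 genes, with adjusted p-values of 4.2e-05 and 0.0033.

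Trp53 held 22.2, 19.4 and 22.8 CPM with leflunomide, against 18.9, 15.8 and 17.3 CPM with DMSO (log2 0.31 ± 0.11, edgeR adjusted p = 0.17). Cdkn1a held 17.9, 17.9 and 9.62 CPM, against 12.6, 10.7 and 10.9 CPM, so that leflunomide replicate 3 lay below and the other two above the DMSO libraries (0.40 ± 0.23, adjusted p = 0.35). Mdm2 held 74.4, 79.9 and 76.5 CPM, against 65.5, 64.4 and 65.9 CPM with DMSO (0.24 ± 0.06, adjusted p = 0.072). Atm held 59.6, 65.4 and 66.1 CPM, against 74.2, 67.6 and 77.4 CPM (-0.20 ± 0.07, adjusted p = 0.18). Bax held 36.6, 33.6 and 30.8 CPM, against 31.9, 38.5 and 35.1 CPM, and Ei24 held 202.5, 207.0 and 183.8 CPM, against 217.1, 226.3 and 195.0 CPM, with overlapping libraries for both. Without leflunomide replicate 3, 7 members were called by edgeR, against 12.4% of all genes in that fit, with Mdm2 (0.24), Plk2 (0.50), Cdkn1a (0.64) and Chek1 (0.30) higher and Ccng1 (-0.34), Rb1 (-0.63) and Atr (-0.42) lower. Without any other library no member was called. Summed leukocyte markers stood at 12.3 to 15.9 CPM with leflunomide against 4.69 to 6.93 CPM with DMSO, and epithelial markers at 1820.3 to 2073.7 CPM against 2409.1 to 2513.4 CPM. Their part in the result was not tested, and Cd3e and Adgre1 had no count.

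Other genes of the pathway were counted in 3 lists. Of 19 tested further p53 targets, 3 were higher and 4 lower in both Drp1 clones, against 7.94% and 12.1% of all genes. In both Fis1 clones 3 were higher and 3 lower, against 5.94% and 9.02% of all genes, and in both Mff clones 3 were higher and 1 lower, against 7.37% and 11.3%. Tnfrsf10b, a death receptor, was higher in the Drp1 clones (65.9 ± 2.76 and 54.0 ± 1.25 CPM) and the Fis1 clones (71.5 ± 3.08 and 62.2 ± 1.59 CPM), against 44.0 ± 2.32 CPM in parental cells. Btg2, an antiproliferative gene, was higher in the Drp1 clones (log2 0.54 and 0.70) and the Mff clones (1.03 and 0.58). The libraries of gs1B8 (3.94 to 4.77 CPM) and gs1_C8 (3.85 to 5.28 CPM) overlapped the parental ones (1.92 to 4.10 CPM). Those of gs2_B4 and gs1_B4 lay above them. In the Fis1 clones Btg2 averaged 5.37 ± 0.487 CPM (gs1_B11) and 3.72 ± 0.588 CPM (gs2_F6), against 3.04 ± 1.09 CPM. Psrc1, a spindle protein gene, was lower in the Drp1 clones (0.214 ± 0.105 and 0.964 ± 0.112 CPM) and the Fis1 clones (0.561 ± 0.165 and 0.0142 ± 0.0246 CPM), against 2.78 ± 0.298 CPM. The Mff clones held 2.27 ± 0.776 CPM of Psrc1 in gs1_B4 and 0.577 ± 0.0831 CPM in gs1_C8.

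Of 25 further apoptosis genes tested, 2 were higher and 7 lower in both Drp1 clones (7.94% and 12.1% of all genes). In both Fis1 clones 0 were higher and 1 lower (5.94% and 9.02% of all genes), and in both Mff clones 3 were higher and 4 lower (7.37% and 11.3%). Cflar, which blocks Casp8, was higher in both Drp1 clones (log2 0.47 and 0.77). Its levels split the other clones, at 126.0 ± 16.3 CPM in gs1_B11, 92.5 ± 18.1 CPM in gs2_F6, 158.1 ± 34.9 CPM in gs1_B4 and 79.0 ± 12.3 CPM in gs1_C8. Parental cells held 83.3 ± 1.48 CPM (SD, n = 3 each).

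Of 26 further checkpoint genes tested, 2 were higher and 6 lower in both Drp1 clones, where all genes gave 7.94% and 12.1%. In both Fis1 clones 1 was higher and 8 lower (all genes, 5.94% and 9.02%), and in both Mff clones 1 was higher and 6 lower (all genes, 7.37% and 11.3%). Mdc1, which binds marked chromatin at DNA breaks, was lower in all 6 clones, at 41.7 to 54.4 CPM against 64.7 ± 5.89 CPM. Brca2, a recombination gene, was lower in the Drp1 clones (43.3 ± 1.80 and 31 ± 3.23 CPM) and the Fis1 clones (47.1 ± 1.41 and 46.6 ± 0.908 CPM), against 61.5 ± 8.58 CPM. In the Mff clones Brca2 was lower in gs1_B4 (log2 -0.42) and higher in gs1_C8 (0.21). With leflunomide no gene of the 3 lists was called. The median log2 fold change of each list in each clone lay within 0.14 of 0.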

How the data were processed

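RNA was polyA-selected and made into libraries with the KAPA RNA HyperPrep kit, per the labels' protocols. Reads were trimmed with Trimmomatic 0.35 and quantified with RSEM on GRCm38 (mm10), per the submitters' processing notes. The sources used here do not give the aligner, the RSEM version or the use of strand. The table, as deposited, has expected counts per gene, with no normalization between libraries, and 91.5% of the values the authors deposited were whole. All were rounded to whole numbers. Column names give the target, clone code and treatment, and which code is which numbered clone in the labels is not stated.

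The 21 libraries of the knockout arm (13940 genes past filterByExpr) and the 6 of the drug arm (12603 genes) were fitted separately with edgeR 4.0.16 in R 4.3.3. Libraries were scaled by TMM, the quasi-likelihood F test was two-sided, and p-values were adjusted by Benjamini-Hochberg over every gene in the fit, with a threshold of 0.05. Levels are CPM scaled within each arm, and no test crosses the arms. The SE of a log2 fold change is its size divided by the square root of F. Replicates were numbered by column order, and every pair of replicates differed by more than sampling noise. Limits given for a count of 0 cover counting error only.

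The members, the lists and the rule for named genes were chosen with earlier results of these data known. The rule gave the value of every library for Trp53, Cdkn1a, Mdm2, Cdkn2a, Bax and Atm, and for members called with 1 sign in all 6 clones, or in both clones of a genotype with log2 fold changes of at least 0.5 in size. It also took members called in opposite directions with at least 0.3, and members called with leflunomide. Other members were given as means, and the values of Plk2 were given in full after they were seen. Alternatives were DESeq2 1.42.0, its size factors, no filter, ribosomal RNA genes left out, other sets of libraries in the fit, the run of column numbers as a block and each library left out. Some genes counted within the lists are not reported here by name. The step was tested on simulated data. Figures were drawn in Python 3.11.15 with matplotlib 3.10.9.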

Additional observations from a re-analysis of the deposited data

Results flagged for a closer look

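The clones of 1 genotype differed under the same contrast in many members. By the edgeR test of the difference itself, 19 members differed between the Drp1 clones, 20 between the Fis1 clones and 17 between the Mff clones, beside 41%, 47.6% and 54.7% of all genes. Atr was called in opposite directions in the Drp1 clones, and gs2_B4 lay below gs1B8 by a log2 difference of -0.36 ± 0.06. It was also called in opposite directions in the Mff clones, where gs1_C8 lay above gs1_B4 by 0.34 ± 0.06. Rrm2b was called in opposite directions in the Drp1 clones, and gs2_B4 lay above gs1B8 by 0.45 ± 0.06. Groups of 3 libraries were too small for a test of single outlying libraries.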

How the results depend on the processing

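Of 148 calls of single members in the clones and between clones, 114 held under every alternative, 34 were lost under at least 1 and 0 changed direction. Lost were 4 with DESeq2 size factors, 5 with DESeq2, 11 with no filter, 8 with ribosomal RNA genes left out (a set defined by gene category after the file was seen), 17 with all 27 libraries in 1 fit, 10 with each clone fitted with parental cells alone and 33 without some 1 library. Of 94 values of members not called in a clone, 17 were called under at least 1 alternative, 8 with the run block and 13 without some 1 library. The cause of these changes was not tested. The calls of Cdkn1a in 5 clones, of Ei24 in 6 and of Trp53 in 4 held under all 13 alternatives of each.

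The members lower in both Mff clones numbered 5, but 3 with DESeq2 size factors, no filter, ribosomal RNA genes left out or all 27 libraries, 2 with each clone and parental cells alone, and 2 to 5 without 1 library. Those lower in all 6 clones numbered 2, but 1 with these same 5 settings and 1 to 2 without 1 library, the lost member being Chek1 in gs1_B4. The 1 higher in both Fis1 clones became 2 with no filter or with the run block, the added member being Polk. Without 1 library the members higher and lower in both clones ran from 3 to 4 and 2 to 4 for Drp1, 1 to 1 and 4 to 5 for Fis1, and the higher ones from 4 to 5 for Mff, and those differing between clones from 16 to 18, 16 to 20 and 14 to 16.

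With leflunomide the count of 0 higher became 2 with DESeq2, 2 with no filter, 1 with the run block, 5 with all 27 libraries and 0 to 4 without 1 library, and the count of 0 lower became 3 with all 27 libraries and 0 to 3 without 1 library. Over all genes 232 were higher and 119 lower, against 426 and 340 with DESeq2, 487 and 470 with no filter, and 1207 and 1325 with all 27 libraries. They were 11 and 2, 18 and 8 or 129 and 37 without DMSO replicate 1, 2 or 3, and 93 and 27, 8 and 2 or 733 and 850 without leflunomide replicate 1, 2 or 3.

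No paired analysis was possible by the labels' replicate numbers because the columns carry serial numbers. With the run of consecutive column numbers as a block, 1 of the 148 calls was lost. Cdkn1a in gs1_C8 then passed at a log2 fold change of -0.41 ± 0.10 (edgeR adjusted p = 0.0034), where the SE without the block was 0.20. Within each of the 3 runs Cdkn1a was lower in gs1_C8 than in parental cells (log2 -0.63, -0.32 and -0.31). Each run of columns held every group of the knockout arm once, in the genotype order of the sample titles within a replicate number. No label states that a run was handled together. Of 21 libraries, 19 correlated best with their own run. Between groups the mean r was 0.081 within runs (lowest -0.096) and -0.041 between runs. Depth limits Pmaip1, Eda2r, Trp53inp1 and Bbc3.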
